A study of Mus musculus with 6 samples.

Results

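The translation factor genes described here are the protein-coding genes of mouse whose symbol starts with Eif or Eef followed by a digit, which are the cytosolic initiation factors, the elongation factors and a few enzymes named after them. The stress kinases (Eif2ak), the 4E-binding proteins (Eif4ebp) and the Y-linked Eif2s3y were left out by the rule and are treated, apart from Eif2s3y, as regulators. The rule took 60 of the 56953 genes in the deposited tables. Of these 60 genes, 58 passed the filter on low counts, and Eef1a2 (0 to 2 counts per library) and Eif4e1b (1 to 3 counts per library) did not.

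Natural killer (NK) cells, innate lymphocytes with cytotoxic granules, were taken from the spleen of wild-type C57BL/6 mice and grown for 7 days with recombinant human interleukin-2 (1700 U/ml) and 5% CO2. The normoxia group was kept at 20% O2 and the hypoxia group at 1% O2, with 3 strand-specific mRNA libraries in each. All cells therefore carried the same genotype and received the same cytokine, and the groups differed by label in oxygen only. The labels call the libraries biological replicates but do not name the mice, pools or cultures behind them, so the spread that a p-value rests on may be partly technical.

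Protein synthesis begins when eIF2, loaded with GTP and initiator tRNA, joins the small ribosomal subunit together with eIF1, eIF1A, eIF3 and eIF5, while the eIF4 factors bring in the capped mRNA. The elongation factor eEF1A then carries each aminoacyl-tRNA to the ribosome, the eEF1B subunits recharge eEF1A with GTP, and eEF2 moves the ribosome along the message. Oxygen shortage is known to restrain translation in many cell types through phosphorylation of eIF2 and eEF2 and through loss of mTORC1 activity, none of which an mRNA level measures. The question here was how the mRNAs of these factors differed after a week at low oxygen.

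Library totals ran from 55104810 to 55794698 estimated counts, so that 1 count was worth about 0.018 CPM, the count scaled to the library total. Apart from the summed levels of cell type markers, CPM below are also scaled with TMM, a factor per library that corrects for differences in RNA composition. These factors lay between 0.942 and 1.05. A gene was called when the adjusted p of edgeR's quasi-likelihood test, corrected over all 15591 tested genes, was under 0.05. Each fold change is the log2 of hypoxia over normoxia and comes with a standard error (SE) or a 95% confidence interval. The summed level of 10 NK markers, without TMM, was 15319 to 17677 CPM in hypoxia and 15554 to 16573 CPM in normoxia. Most of it came from Gzmb (TMM-scaled means of 11744 CPM in hypoxia and 11992 CPM in normoxia). Of the 10 markers, 2 (Eomes and Klre1) were called lower. Klrk1, Prf1 and Ncr1 were lower in every hypoxia library than in any normoxia library but were not called. Tbx21 was higher in every hypoxia library and not called, and Gzmb, Nkg7, Itga2 and Klrb1c overlapped between groups.

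In the reported fit, which has no replicate term, a part of the translation factor mRNAs was called lower in hypoxia, and the larger part was not called. With the replicate number added to the fit, 30 of 58 members (51.7%) were called lower, beside 20.0% of all tested genes. The values that follow are from the reported fit. Of the 58 tested members, 18 were called lower and 0 higher, whereas 9.72% of all tested genes were called lower and 11.2% higher. At an unadjusted p under 0.05, 1 member (Eif1b) was higher by edgeR, and DESeq2 and limma-voom also called 0 higher. The fold change was negative for 56 of 58 members, with a median of -0.16 on the log2 scale, beside a median of -0.0052 over all tested genes. The members' changes were small, from -0.59 for Eef1akmt1, a methyltransferase of eEF1A, to 0.20 for Eif1b, a relative of the start-codon factor eIF1. In bulk RNA, fewer cells of a type and less RNA per cell cannot be told apart.

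The libraries of the groups did not overlap for 26 members that were lower in every hypoxia library and for 1 that was higher in every one (Eif1b), beside 18.7% of all tested genes lower and 19.6% higher by the same criterion. Together the members held 2.96%, 2.95% and 3.06% of all counts in hypoxia replicates 1 to 3 and 3.51%, 3.41% and 3.52% in normoxia. Eef1a1 alone made up 1.26% to 1.32% of a hypoxia library and 1.56% to 1.66% of a normoxia library. Without Eef1a1 and Eef2, the remaining members held 1.24% to 1.33% in hypoxia and 1.36% to 1.45% in normoxia, so these ranges stayed apart. Among the 35 members averaging at least 100 CPM, 11 were called lower, with a median of -0.15, beside 314 of 2122 genes (14.8%) and a median of -0.06 for all genes at that level.

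The count of called members depended on how differences between libraries were treated. With the replicate number as a block, 30 members were called lower and 1 higher (Eif1b), against a background that rose to 20.0% lower and 19.2% higher. The 12 members added by the block were Eif2a, Eif2b5, Eif3a, Eif3c, Eif3f, Eif3g, Eif3j1, Eif3k, Eif4a2, Eif4e2, Eif4h and Eif5. With scaling by the library total alone, 9 members were called lower and 1 higher (Eif1b), the median of the members moved to -0.08, and 43 of 58 fold changes were negative. Under that scaling 6.40% of all genes were called lower and 15.3% higher.

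**Figure D1:**
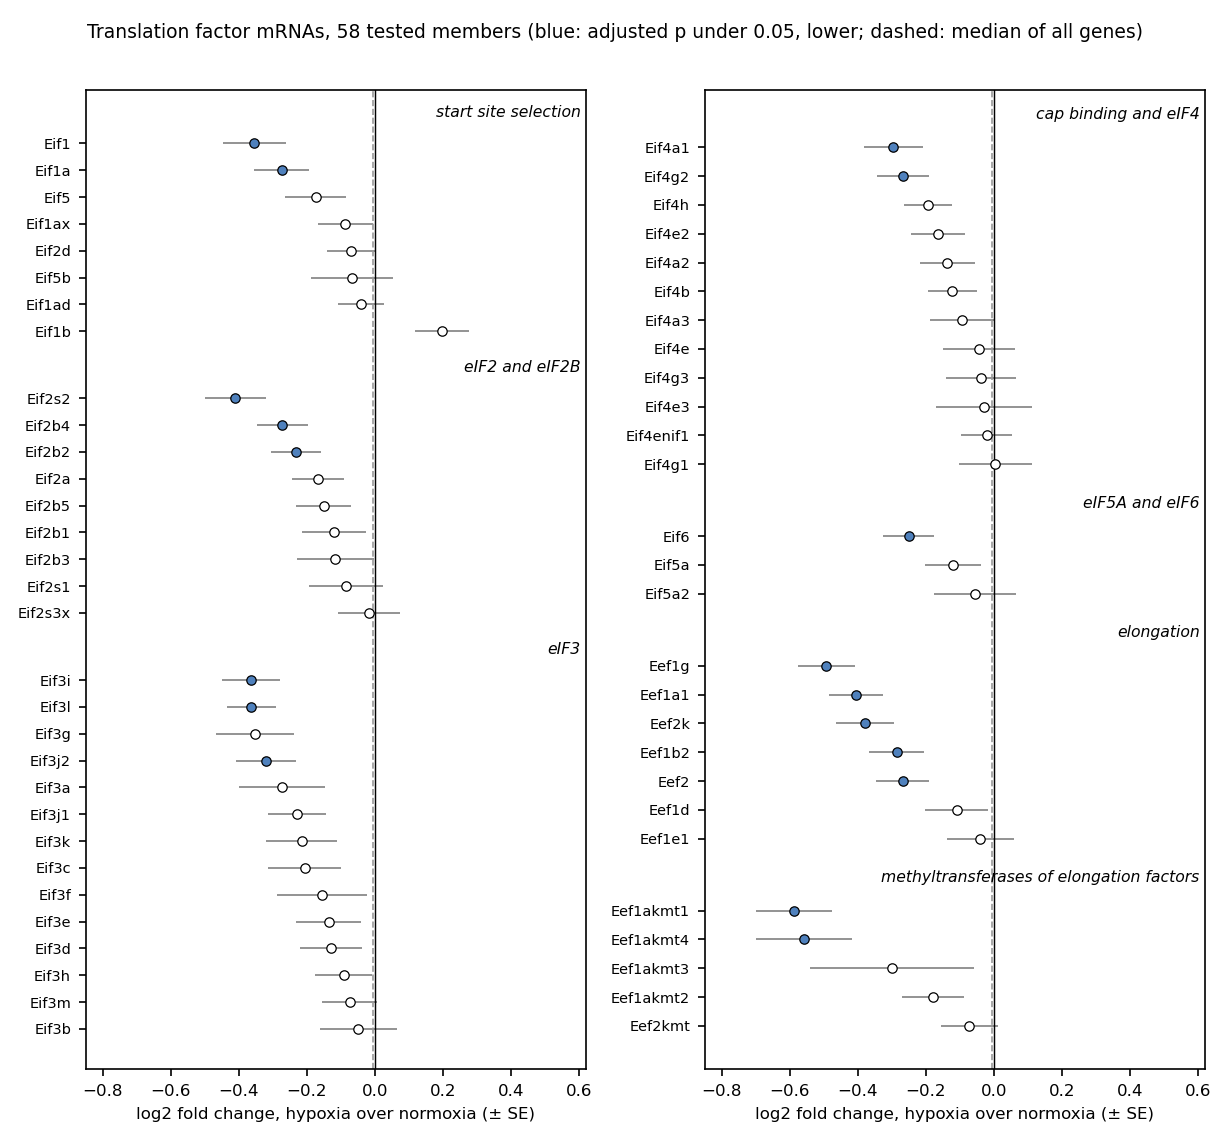
Log2 fold change, hypoxia over normoxia, with SE for the 58 tested translation factor genes, grouped by role and sorted within each role; filled points were called lower and the dashed line is the median of all tested genes. Points of 56 genes lie left of 0 (43 under scaling by library total), the 18 called members lie between -0.59 and -0.23, and Eif1b lies farthest to the right at 0.20.

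Promoter windows from RefSeq (build GRCm38.p6), from 250 bases before to 50 bases after an annotated start, were matched to 46 of the 60 members, of which 11 were called lower, 34 were not called and Eef1a2 was below the filter. They are shown because a pair of sequence elements is well known for translation genes. These are the E box CACGTG, bound by MYC and related factors, and the pyrimidine tract at the cap of many translation factor mRNAs. CACGTG, which reads the same on both strands, stood in a window of 13 of 46 members (28.3%), beside 8.09% of 27025 genes with a window and 11.5% of 9875 tested protein-coding genes. It was found in 4 of the 11 members called lower and in 9 of the 34 not called. The windows of those 4 members, and that of Eif1b, are given with the element in capitals.
Eef2, chr10:81176576-81176605, plus strand: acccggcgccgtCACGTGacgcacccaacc
Eef2k, chr7:120842788-120842817, plus strand: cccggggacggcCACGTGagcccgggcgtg
Eef1akmt4, chr16:20611497-20611526, plus strand: tgacggaagttcCACGTGtttgtgtggagc
Eif4a1, chr11:69672595-69672624, minus strand: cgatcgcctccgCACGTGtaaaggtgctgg
Eif1b, chr9:120492570-120492599, plus strand: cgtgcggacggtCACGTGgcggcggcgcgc
The element began 43 bases before the annotated start in Eef2, 31 in Eef2k, 92 in Eef1akmt4, 189 in Eif4a1 and 24 in Eif1b, so it occurred in members with either sign of fold change.

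A pyrimidine tract, counted here as a C followed by at least 7 further C or T letters on the gene's strand within 50 bases of the annotated start, was present in 21 of 46 members (45.7%) and in 32.0% of 27025 genes. It was present in 5 of the 11 members called lower and in 15 of the 34 not called. Tracts are shown in capitals for 3 members that were called lower and for 2 that were not, to set the groups side by side.
Eef1a1, chr9:78481710-78481739, minus strand: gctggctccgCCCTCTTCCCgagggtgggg
Eif3l, chr15:79075207-79075236, plus strand: ggcgcggagttCTTCTTCCgctctctccca
Eif2b2, chr12:85219475-85219504, plus strand: gcggaagttgaCCTCTCTCggcccggaagt
Eif3f, chr7:108934404-108934433, plus strand: ttctaggCTCTCTCTCTTTCTCggcaagat
Eif2s3x, chrX:94212632-94212661, minus strand: gagcattttCCTTTTCTCTCCgagcaagat
The composite element TGATGNAA, the kind of site through which ATF4 acts, was searched on both strands. It was found in 2 of 46 members (4.35%), in 4.51% of 27025 genes and in 2.81% of 9875 tested protein-coding genes. These counts describe letters in a window. They were not tested, and binding or initiation at the sites was not measured.

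The elongation factors held the most abundant members and were mostly lower. Of 7 tested genes of this group, 5 (71.4%) were called lower, with a median of -0.29, beside 9.72% of all tested genes. Per kilobase of transcript, Eef1a1 stood first among the members at 6969 CPM per kilobase in hypoxia and 9229 in normoxia, and Eef2 second at 1339 and 1612. Eef1a1, which encodes the tRNA carrier eEF1A, was measured at 12464, 12015 and 13026 CPM in hypoxia replicates 1 to 3 and at 17604, 15745 and 16321 CPM in normoxia. Every hypoxia library lay below every normoxia library. Its level fell by 0.41 (SE 0.08, edgeR adjusted p = 0.0065), a change of -24.5%.

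Eef1g, which encodes the eEF1B gamma subunit that anchors the exchange complex, was measured at 919, 864 and 975 CPM in hypoxia and at 1389, 1212 and 1278 CPM in normoxia. The groups were well separated, and the fold change of -0.49 (SE 0.09, edgeR adjusted p = 0.0032) was the largest among members above 100 CPM. Eef1b2, which encodes the nucleotide exchange subunit eEF1B alpha, stood at 425, 454 and 499 CPM in hypoxia and at 573, 553 and 554 CPM in normoxia. Hypoxia replicate 3 came nearest to the normoxia libraries without reaching them, and Eef1b2 fell by 0.29 (SE 0.08, edgeR adjusted p = 0.034). Eef1d, the gene of the other exchange subunit, eEF1B delta, was not called (-0.11, 95% confidence interval -0.32 to 0.10). Eef1e1, a scaffold protein of the tRNA synthetase complex, was not called either (-0.04, interval -0.26 to 0.18).

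Eef2, the gene of the translocase, was measured at 4314, 3983 and 4111 CPM in hypoxia and at 5255, 4851 and 4836 CPM in normoxia. The groups did not overlap, and Eef2 fell by 0.27 (SE 0.08, edgeR adjusted p = 0.036). This call was kept in 6 of 15 other settings and was lost whenever 1 library was left out. Its inhibitory kinase Eef2k, which phosphorylates eEF2 when energy is short, was also lower. Eef2k stood at 86.4, 78.8 and 75.6 CPM in hypoxia and at 113, 105 and 95.3 CPM in normoxia. Replicate 1 was the highest and replicate 3 the lowest library of both groups, and Eef2k fell by 0.38 (SE 0.09, edgeR adjusted p = 0.012). The transcripts of translocase and kinase thus moved in the same direction.

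Among the 5 methyltransferases that modify eEF1A or eEF2, 2 (40%) were called lower, beside 9.72% of all tested genes. These 2 had the largest fold changes of all members. Eef1akmt1 was measured at 9.92, 11.0 and 13.2 CPM in hypoxia and at 16.4, 16.8 and 18.1 CPM in normoxia. All hypoxia libraries were below all normoxia libraries, and the level fell by 0.59 (SE 0.11, edgeR adjusted p = 0.0053), a change of -33.4%. Eef1akmt4 stood at 7.95, 6.13 and 8.08 CPM in hypoxia and at 12.4, 9.25 and 11.0 CPM in normoxia. Normoxia replicate 2 came closest to the hypoxia libraries, and Eef1akmt4 fell by 0.56 (SE 0.14, edgeR adjusted p = 0.021). In GENCODE M21, 30.7% of the exon bases of Eef1akmt4 are shared with the read-through gene Gm49333 (0 to 5.59 counts per library) and 8.86% lie opposite exons of Alg3 (779 to 1106 counts), so its reads could be divided otherwise. Eef1akmt2 (-0.18), Eef1akmt3 (-0.30, below 1 CPM in every library) and Eef2kmt (-0.07) were not called.

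Of the 8 genes grouped under start site selection, 2 (25%) were called lower and 0 higher, beside 9.72% and 11.2% of all tested genes. Their median of -0.08 became 0.0036 with scaling by library total. The group also holds Eif1ad, Eif2d and Eif5b, so it is wider than the choice of the start codon. Eif1, which encodes the factor that keeps the ribosome scanning until a start codon is found, was measured at 386, 356 and 382 CPM in hypoxia and at 539, 453 and 444 CPM in normoxia. Normoxia replicate 1 was the highest library, and the remaining 2 normoxia libraries were still above all hypoxia libraries. Eif1 fell by 0.35 (SE 0.09, edgeR adjusted p = 0.023). Eif1a, one of the genes of eIF1A, was measured at 101, 99.5 and 115 CPM in hypoxia and at 128, 121 and 133 CPM in normoxia, without overlap (-0.27, edgeR adjusted p = 0.039). Its X-linked counterpart Eif1ax overlapped between groups and was not called (-0.09, 95% confidence interval -0.27 to 0.09).

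Eif1b, which encodes a protein very similar to eIF1, was the only member with hypoxia libraries (42.3, 48.8 and 47.1 CPM) all above the normoxia libraries (42.0, 38.2 and 40.2 CPM). Replicate 1 of the groups differed little. The fold change of 0.20 (95% confidence interval 0.02 to 0.38) was not called (edgeR adjusted p = 0.11), and was called with the replicate block (0.029), with scaling by library total (0.030) and without both replicate 1 libraries (0.023). Eif5, the GTPase activator of eIF2, had a fold change of -0.17 and was called with the block only (edgeR adjusted p = 0.21 without it and 0.028 with it). Eif5b, the GTPase of subunit joining, Eif1ad and Eif2d were not called, with fold changes from -0.07 to -0.04.

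The subunits of eIF2 differed from each other. Eif2s2, the gene of eIF2 beta, was measured at 224, 240 and 267 CPM in hypoxia and at 329, 300 and 342 CPM in normoxia. No hypoxia library reached the lowest normoxia library, and Eif2s2 fell by 0.41 (SE 0.09, edgeR adjusted p = 0.011). Eif2s1, the gene of the alpha subunit that stress kinases phosphorylate, stood at 136, 145 and 177 CPM in hypoxia and at 155, 153 and 177 CPM in normoxia. These ranges overlapped (-0.08, 95% confidence interval -0.33 to 0.16). Eif2s3x, the gene of the GTP-binding gamma subunit, likewise overlapped at 344 to 399 CPM in hypoxia and 344 to 411 CPM in normoxia (-0.02, interval -0.22 to 0.19).

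The exchange factor eIF2B, which recharges eIF2 with GTP, has subunits from 5 genes, and 2 of them were called lower. Eif2b4 stood at 22.1, 22.3 and 23.5 CPM in hypoxia and at 26.4, 26.8 and 28.7 CPM in normoxia, with tight and separate groups (-0.27, edgeR adjusted p = 0.028). In GENCODE M21, 7.85% of the exon bases of Eif2b4 lie opposite exons of Snx17 (3705 to 4076 counts per library), so some of its reads could be divided otherwise. Eif2b2 stood at 39.4, 39.4 and 40.9 CPM in hypoxia and at 50.3, 45.4 and 44.9 CPM in normoxia. It lay just under the threshold (-0.23, edgeR adjusted p = 0.0497) and kept its call in 5 of 15 other settings. Eif2b5, the catalytic subunit, had a fold change of -0.15 and was called with the replicate block only (edgeR adjusted p = 0.23 without it and 0.021 with it). Eif2b1 and Eif2b3 had fold changes of -0.12 and were not called. Eif2a, which encodes an alternative carrier of initiator tRNA, had a fold change of -0.17, was not called, and was called with the block (edgeR adjusted p = 0.16 without it and 0.033 with it).

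All 14 genes of eIF3, the scaffold that holds initiation factors on the small subunit, had negative fold changes (12 of 14 with scaling by library total). The median over the 14 was -0.21, and 3 (21.4%) were called lower, beside 9.72% of all tested genes. Eif3l was measured at 148, 151 and 162 CPM in hypoxia and at 196, 192 and 205 CPM in normoxia. The groups were far apart relative to their spread, and Eif3l fell by 0.36 (SE 0.07, edgeR adjusted p = 0.0069). Eif3i stood at 131, 138 and 153 CPM in hypoxia and at 179, 171 and 193 CPM in normoxia. These libraries were also separate, and Eif3i fell by 0.36 (SE 0.09, edgeR adjusted p = 0.015). The block added 6 genes of eIF3 to the called ones, which were Eif3a, Eif3c, Eif3f, Eif3g, Eif3j1 and Eif3k.

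Eif3j1 and Eif3j2 are near-identical genes for the loosely bound j subunit, and 94.0% of the 31-base words of Eif3j2 also occur in Eif3j1, so counts could be divided between them arbitrarily. Eif3j2 stood at 49.9, 54.0 and 59.7 CPM in hypoxia and at 65.6, 64.3 and 74.3 CPM in normoxia and was called lower (-0.32, SE 0.09, edgeR adjusted p = 0.029), while Eif3j1 was not called (-0.23, edgeR adjusted p = 0.086). Their sum does not depend on the division and was 93.3 to 106.8 CPM in hypoxia and 112.1 to 124.7 CPM in normoxia, without overlap.

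Eif3a, the largest subunit, was measured at 363, 443 and 494 CPM in hypoxia and at 450, 551 and 571 CPM in normoxia. Replicate 1 was the lowest library of both groups, and the groups overlapped. The fold change of -0.27 (95% confidence interval -0.56 to 0.01) was not called (edgeR adjusted p = 0.16) and was called with the replicate block (0.0012). Eif3e, which had a fold change of -0.14 (interval -0.35 to 0.08), was called in neither. Eif3g had a larger fold change than many called genes (-0.35) and narrowly missed the threshold (edgeR adjusted p = 0.057). Eif3d (-0.13), Eif3h (-0.09), Eif3m (-0.07) and Eif3b (-0.05), which had the smallest fold change of the complex, were called with neither fit.

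In the cap-binding and eIF4 group, 2 of 12 tested genes (16.7%) were called lower, and the median was -0.11. Lower calls made up 9.72% of all tested genes and 14.8% of all genes averaging at least 100 CPM. With scaling by library total, 0 of the 12 were called lower and the median was -0.03. Eif4a1, the gene of the main RNA helicase of initiation, was measured at 846, 836 and 946 CPM in hypoxia and at 1080, 999 and 1146 CPM in normoxia. The groups did not overlap, and Eif4a1 fell by 0.30 (SE 0.09, edgeR adjusted p = 0.037). The processed pseudogene Eif4a-ps4 shares 97.4% of its 31-base words with Eif4a1. It was at 0 in both replicate 1 libraries, at 42.5 and 54.8 CPM in hypoxia replicates 2 and 3, and at 28.9 and 59.6 CPM in normoxia replicates 2 and 3. With its counts added, the fold change of Eif4a1 was -0.28 and was no longer called (edgeR adjusted p = 0.059).

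Eif4g2, which encodes a scaffold for translation independent of the cap-binding protein eIF4E, stood at 773, 762 and 842 CPM in hypoxia and at 943, 924 and 993 CPM in normoxia. All hypoxia libraries were below all normoxia libraries (-0.27, edgeR adjusted p = 0.036). The scaffolds of cap-dependent initiation showed no such separation. Eif4g1 stood at 484, 506 and 549 CPM in hypoxia and at 446, 499 and 590 CPM in normoxia (0.0042, 95% confidence interval -0.24 to 0.24), and its sign changed between settings. Eif4g3 had a fold change of -0.04 (interval -0.27 to 0.19).

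The cap-binding proteins are of interest because eIF4E2 is known to take part in translation at low oxygen. Eif4e was measured at 152, 122 and 138 CPM in hypoxia and at 159, 131 and 133 CPM in normoxia, and Eif4e2 at 101, 108 and 119 CPM and at 120, 120 and 127 CPM. For Eif4e the groups overlapped (-0.04, 95% confidence interval -0.28 to 0.19). For Eif4e2 they did not overlap by a small margin. The fold change of Eif4e2 was -0.16 (interval -0.34 to 0.02) and was called with the replicate block only (edgeR adjusted p = 0.18 without it and 0.020 with it). Eif4e3 had a fold change of -0.03 (interval -0.34 to 0.29). Eif4b, a helper of the helicase, was not called (-0.12, interval -0.28 to 0.04), and the second helicase gene Eif4a2 was called with the block only (-0.14, edgeR adjusted p = 0.28 without it and 0.044 with it). Eif4h, a cofactor of the helicase, had a fold change of -0.19 without overlap between groups, was not called, and was called with the block and by DESeq2 (edgeR adjusted p = 0.085 without it and 0.0087 with it), and Eif4a3 (-0.09) and Eif4enif1 (-0.02) were not called.

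Eif6, which encodes a factor that keeps ribosomal subunits apart, stood at 71.1, 70.0 and 73.3 CPM in hypoxia and at 81.2, 81.1 and 92.6 CPM in normoxia. The groups did not overlap, and Eif6 was called lower (-0.25, edgeR adjusted p = 0.041). Eif5a, whose hypusine-bearing protein relieves stalled ribosomes, was the third member per kilobase (788 CPM per kilobase in hypoxia and 856 in normoxia) and was not called (-0.12, 95% confidence interval -0.30 to 0.06). Eif5a2 stood at 5.75 to 6.87 CPM in hypoxia and 5.97 to 7.22 CPM in normoxia (-0.05, interval -0.32 to 0.22).

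**Figure D2:**
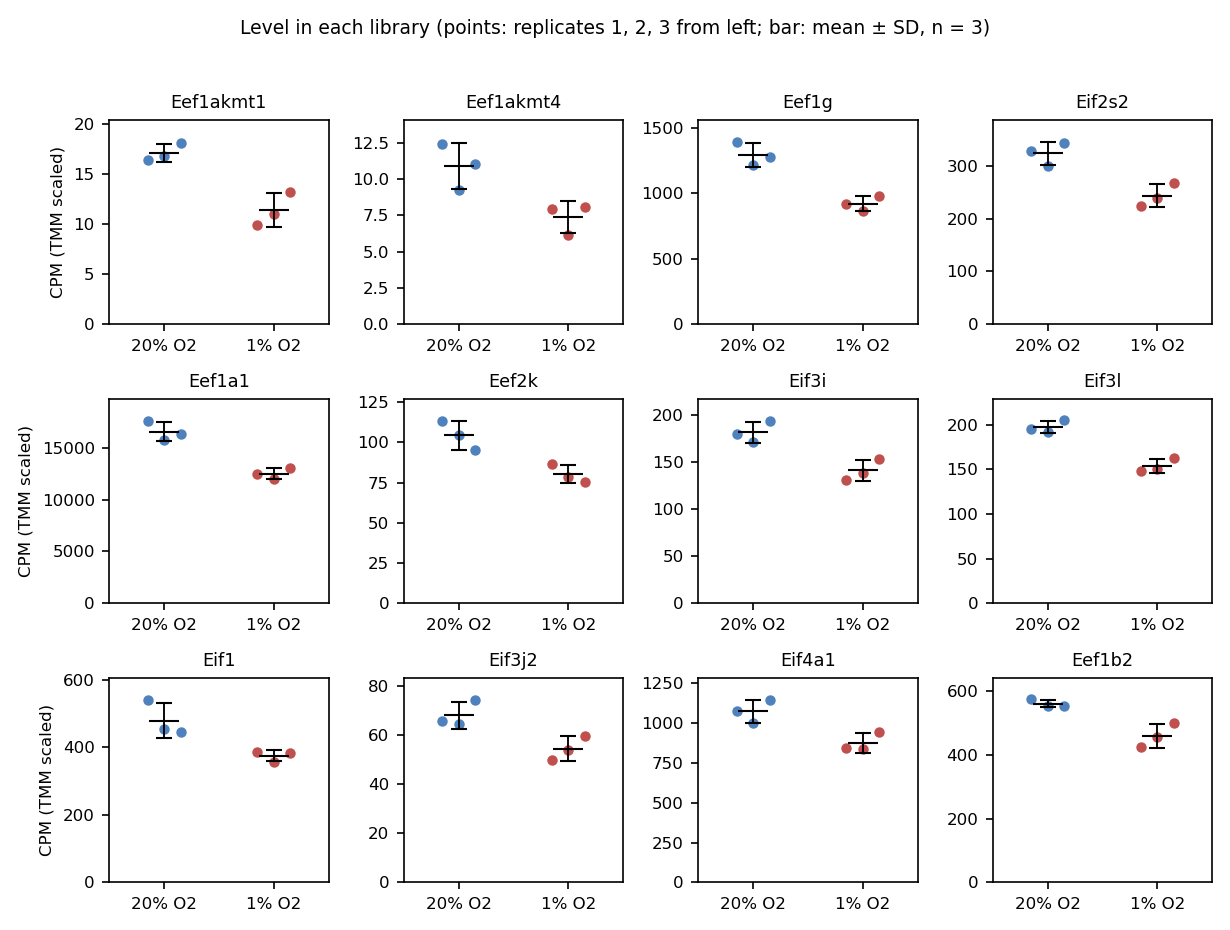
Levels in TMM-scaled CPM, on axes that start at 0, of the 12 called members with the largest fold changes among those averaging at least 5 CPM; points are replicates 1, 2 and 3 from left to right at 20% and 1% O2, and bars give mean and SD (n = 3). In each panel the hypoxia points lie below the normoxia points, as for Eef1a1 with 12015 to 13026 CPM against 15745 to 17604 CPM.

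Within pairs of related genes, the ratio of counts per kilobase inside a library does not depend on scaling between libraries. Ratios were available for 8 of 9 listed pairs, and with 3 libraries against 3 the exact permutation test cannot give a p below 0.1. The log2 ratio of Eif1b to Eif1 was -2.84, -2.51 and -2.67 in hypoxia and -3.33, -3.21 and -3.11 in normoxia. The ranges were apart, with a difference of 0.55 (exact two-sided permutation p = 0.1, adjusted over 8 pairs 0.4). The log2 ratio of Eif1a to Eif1ax was 1.13, 1.05 and 1.12 in hypoxia and 1.29, 1.30 and 1.27 in normoxia, also without overlap (difference -0.19, exact permutation p = 0.1, adjusted 0.4). The remaining 6 pairs overlapped between groups, among them Eif4e2 to Eif4e (difference -0.12, exact permutation p = 0.5) and Eif4a2 to Eif4a1 (difference 0.16, exact permutation p = 0.3).

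**Figure D3:**
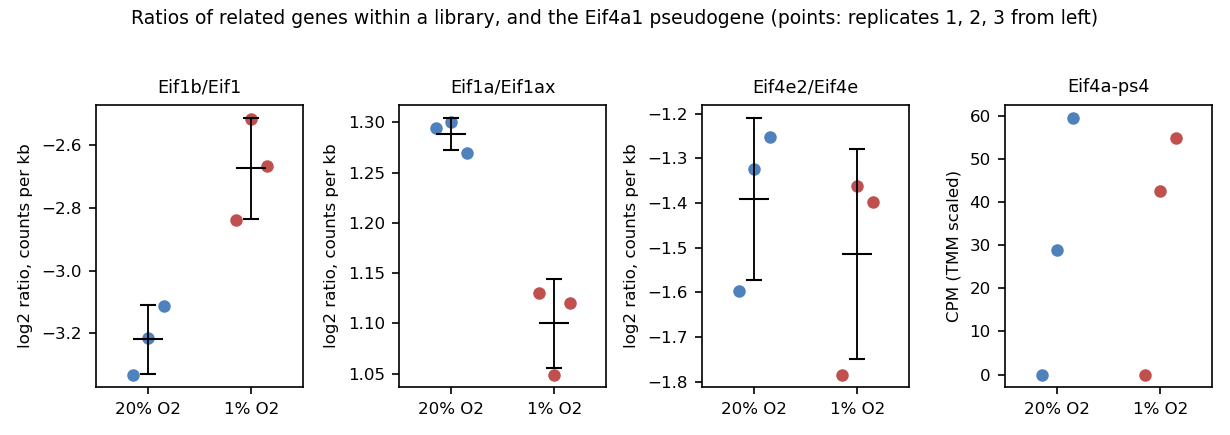
Log2 ratios of counts per kilobase inside each library for 3 pairs of related genes, with mean and SD (n = 3), and the level of the pseudogene Eif4a-ps4 in CPM, each as replicates 1, 2 and 3 from left to right at 20% and 1% O2; the axes of the ratios do not start at 0. The ratio of Eif1b to Eif1 was higher and that of Eif1a to Eif1ax lower in all hypoxia libraries, the ratio of Eif4e2 to Eif4e overlapped, and Eif4a-ps4 was at 0 in both replicate 1 libraries.

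Many translation factor mRNAs are known to begin with a terminal oligopyrimidine tract, through which mTORC1 and LARP1 govern their use. Of 10 such members, 4 (40%) were called lower (Eef1a1, Eef1g, Eef1b2 and Eef2), beside 9.72% of all tested genes and 14.8% of all genes averaging at least 100 CPM. Over the 10 the median was -0.21 and all fold changes were negative, as were 56 of the 58 tested members. The 4 called genes all belong to the elongation group. Eef1d and the listed initiation factors (Eif3a, Eif3e, Eif3f, Eif3h and Eif4b) were not called, so tract and elongation role cannot be told apart here. The 10 were listed by name and not by the promoter windows above. In those windows a tract was found for Eef1a1, Eif3a and Eif3f but not for Eef2, Eef1b2 or Eif4b. Eef1g, Eef1d, Eif3e and Eif3h had no window. Of 4 terminal oligopyrimidine mRNAs outside the translation factors proper, 2 were called lower, namely Pabpc1 (-0.32) and Hnrnpa1 (-0.35), and Tpt1 and Nap1l1 were not. Among 76 cytoplasmic ribosomal protein genes, 37 were called lower with a median of -0.29, and among 20 cytosolic aminoacyl-tRNA synthetase genes 13 were called lower with a median of -0.45. The differences between these groups and the translation factors were not tested.

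Of 56 listed genes that regulate translation, finish it or serve it in mitochondria, 12 (21.4%) were called lower and 1 higher (Paip1). Their median was -0.10, and of all tested genes 9.72% were called lower and 11.2% higher. With the replicate block 20 of 56 were called lower and 5 of 56 higher, while 20.0% of all tested genes were called lower and 19.2% higher. The share of lower calls among the 56 was thus above that of all tested genes, and the share of higher calls below it. Of the 9 genes around phosphorylation of eIF2 alpha, 5 were called lower with a median of -0.26. Eif2ak2, the gene of the kinase PKR that senses double-stranded RNA, was measured at 34.9, 36.9 and 39.2 CPM in hypoxia and at 64.6, 70.8 and 61.5 CPM in normoxia. The groups were far apart, and Eif2ak2 fell by 0.83 (SE 0.08, edgeR adjusted p = 0.00013). Atf4, the transcription factor made when eIF2 alpha is phosphorylated, stood at 290, 259 and 277 CPM in hypoxia and at 541, 463 and 460 CPM in normoxia. Again no hypoxia library came near a normoxia library, and Atf4 fell by 0.83 (SE 0.09, edgeR adjusted p = 0.00026).

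Eif2ak3, the gene of the kinase PERK of the endoplasmic reticulum, was lower (-0.42, edgeR adjusted p = 0.0028), as was Eif2ak4, the gene of the amino acid sensor GCN2 (-0.26, edgeR adjusted p = 0.046). Ppp1r15a, which encodes the inducible subunit that directs a phosphatase to eIF2 alpha, was lower as well (-0.50, edgeR adjusted p = 0.0055). Kinases and phosphatase subunit thus had fold changes of the same sign, while Eif2ak1, Impact, Gcn1l1 and Ppp1r15b were not called. Phosphorylation itself was not measured.

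Among 22 genes of cap and mTORC1 control, 3 were called lower and 1 higher, beside 9.72% and 11.2% of all tested genes, with a median of -0.05 that became 0.03 with scaling by library total. Eif4ebp1, which encodes the inhibitor that holds eIF4E when mTORC1 is inactive, had the largest fold change of all 56. It was measured at 25.0, 22.7 and 21.8 CPM in hypoxia and at 52.8, 41.1 and 40.1 CPM in normoxia. Even the lowest normoxia library was well above the highest hypoxia library, and Eif4ebp1 fell by 0.95 (SE 0.11, edgeR adjusted p = 0.00042). Its relative Eif4ebp2 stood at 181 to 215 CPM in hypoxia and 165 to 197 CPM in normoxia and was not called (0.13, 95% confidence interval -0.09 to 0.35), except with the replicate block (edgeR adjusted p = 0.046).

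Larp1, which encodes the protein that binds terminal oligopyrimidine mRNAs, was lower (-0.38, edgeR adjusted p = 0.0052), and so was Pabpc1, the gene of the main poly(A)-binding protein (edgeR adjusted p = 0.026). Paip1, a gene for a stimulating partner of that protein, was at 52.9, 47.4 and 50.3 CPM in hypoxia and at 45.0, 38.0 and 41.6 CPM in normoxia. Its groups were separate, the fold change was 0.27 (edgeR adjusted p = 0.042), and the call was lost when any one of the hypoxia libraries or normoxia replicate 2 or 3 was left out. Pdcd4, an inhibitor of eIF4A, was not called (-0.21, 95% confidence interval -0.45 to 0.03), nor was Mtor (-0.06, interval -0.25 to 0.14).

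Further along the pathway, Dhps, whose enzyme makes the first step of hypusine on eIF5A, was lower (-0.43, edgeR adjusted p = 0.014) and was the only called gene of the 10 for hypusine, diphthamide and selenocysteine. Hbs1l, which acts with pelota in rescue of stalled ribosomes, was the only one of 6 termination and recycling genes called lower (-0.34, edgeR adjusted p = 0.011). Of the 9 mitochondrial translation factors, Gfm2 (-0.40, edgeR adjusted p = 0.0094) and Tsfm (-0.30, edgeR adjusted p = 0.032) were lower. Lower calls were 10% of the hypusine, diphthamide and selenocysteine list, 16.7% of termination and recycling and 22.2% of the mitochondrial factors. Of all tested genes, 9.72% were called lower. Of the 5 scanning helpers and reinitiation factors 0 were called by edgeR, DESeq2 or limma-voom, 1 was lower at an unadjusted p under 0.05, and the block called 2 lower.

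**Figure D4:**
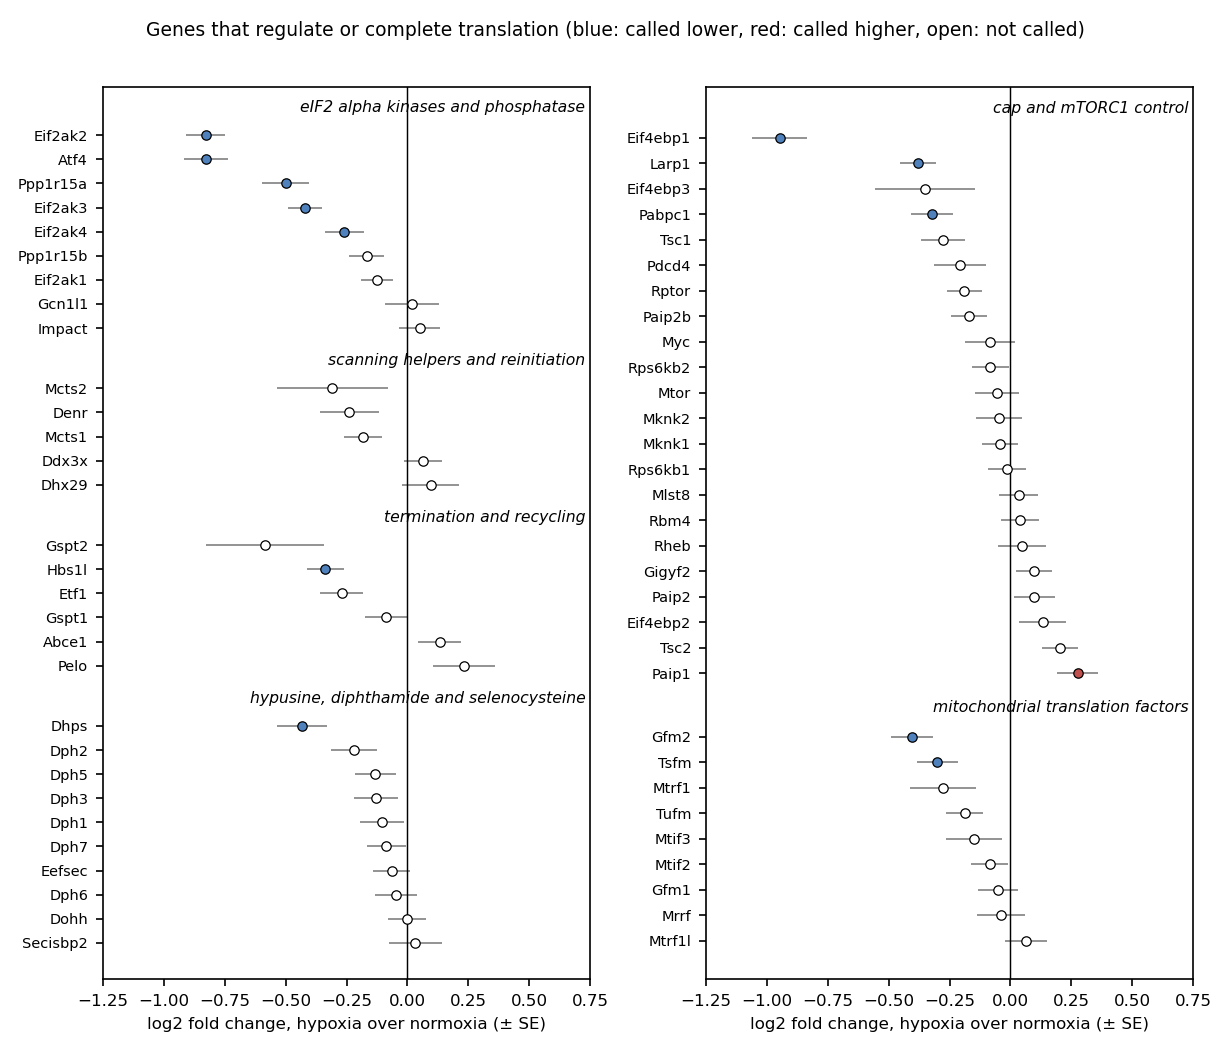
Log2 fold change, hypoxia over normoxia, with SE for the 56 genes that regulate or complete translation and for the 5 scanning helpers and reinitiation factors, by list. The lowest points are Eif4ebp1 at -0.95 and Eif2ak2 and Atf4 at -0.83, Paip1 at 0.27 is the only gene called higher, and open points were not called.

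Markers of other cell types differed between the groups as well. Summed levels here are CPM of the library total, without TMM. Summed T cell markers were 168.7 to 218.5 CPM in hypoxia and 108.3 to 122.1 CPM in normoxia, with 3 of 7 called higher (Cd3d, Cd3g and Cd4). Cd4 was at most 0.87 CPM in any library. Cd3e (-0.05), Trac (-0.08), Cd8a (0.15) and Cd8b1 (0.41) overlapped between groups and were not called. Basophil and mast cell markers were 79.7 to 92.1 against 18.9 to 25.6 CPM, nearly all from Mcpt8, and macrophage markers 51.3 to 85.9 against 15.2 to 27.5 CPM, mostly from Cd68, with 2 of 4 tested called higher and Cd14 called lower. Of the B cell markers, 1 of 1 tested was called higher (Cd79b, at most 1.04 CPM). Neutrophil markers summed to at most 1.54 CPM (2 of 2 tested called higher) and erythroid markers to at most 0.144 CPM (0 tested). Of the defining markers, Ms4a1, Pax5, Adgre1, Alas2, Hbb-bs and Ms4a2 had at most 3 counts in any library, and none of these was at 0 in all libraries. Of 10 proliferation markers 0 were called by edgeR, DESeq2 or limma-voom and 1 was lower at an unadjusted p under 0.05 (summed level 3474 to 3793 CPM in hypoxia and 3152 to 3920 CPM in normoxia). The part of these cells in the translation factor values was not tested.

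Calls for single members varied in how well they held. Eef1g, Eef1a1 and Eef1akmt1 were called lower in all 15 other settings. Eif2s2, Eif3l and Eef1akmt4 were called in 14 of 15, with the exception of the fit without hypoxia replicate 2. All 18 called members kept a negative fold change in each of the 15 settings. Eef2, Eif2b2, Eif4a1, Eif6, Eif4g2, Eif2b4, Eef1b2, Eif1a and Eif3j2 were called in 5 to 10 of the 15. Leaving out hypoxia replicate 2 left 3 of 58 members called lower (5.17%), a share near the 5.05% of all tested genes. Leaving out hypoxia replicate 1 or normoxia replicate 3 left 8 (13.8%), beside 6.45% and 7.72% of all tested genes, and leaving out normoxia replicate 2 left 10 (17.2%), beside 5.87%.

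**Figure D5:**
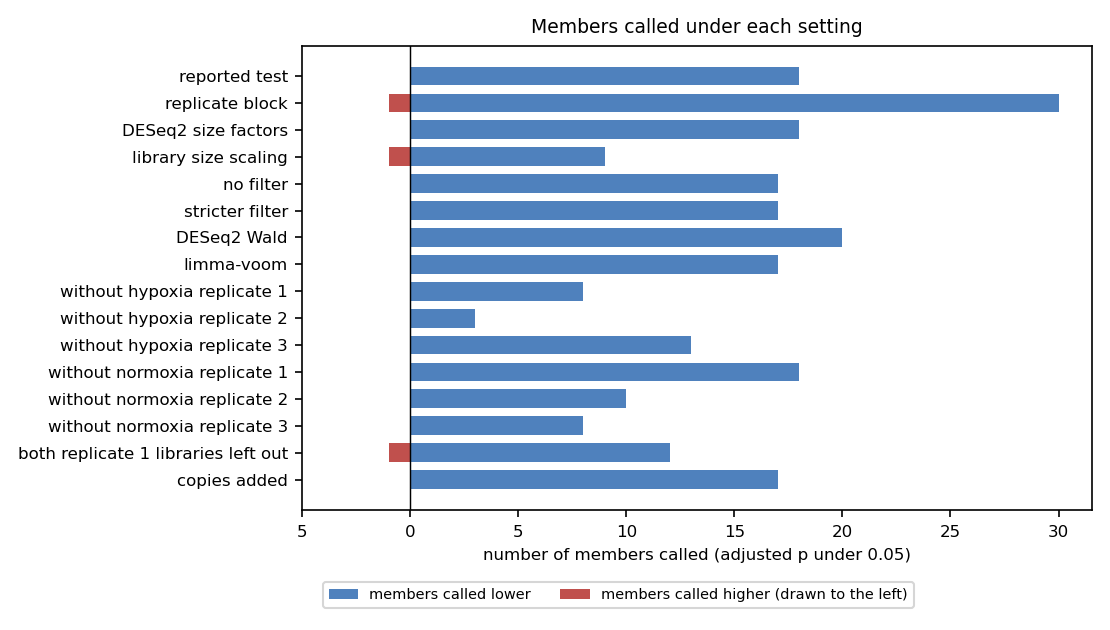
Number of translation factor genes called lower (to the right) and higher (to the left) at an adjusted p under 0.05 in the reported test and in each of the 15 other settings. The bars for lower range from 3 without hypoxia replicate 2 to 30 with the replicate block, and 1 gene, Eif1b, was called higher in 3 settings.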

How the data were processed

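RNA-seq of 3 hypoxia and 3 normoxia libraries was analysed from 2 deposited values per gene. The authors deposited unnormalized estimated counts for 56953 Ensembl genes, and 69.5% of these values were whole within 1e-06. They also deposited values named CPM, which per the file values are log2 CPM from -4.80 to 14.0 and equalled what edgeR computes from the counts with a prior count of 2 (largest difference 0 after rounding to 10 decimals). The latter were used for that check only. Trim Galore 0.6.4, kallisto 0.4.6, edgeR 3.17 and the build GRCm39 are named in the submitters' processing notes. Which annotation was used, and how transcripts were summed to genes, is not given in the sources used here.

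Symbols, biotypes and transcript lengths came from GENCODE M21, an annotation of the earlier build GRCm38, where 52029 of the 56953 IDs had a symbol, so a member with an ID of a later release could be missed. Sequence windows are RefSeq's on GRCm38.p6. Since kallisto assigns ambiguous reads by likelihood, genes sharing at least 50% of 31-base words were listed for 15 members, and apart from Eif3j1 and Eif4a1 these copies held at most 0.142% of a member's counts in any library.

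Counts were rounded, filtered with filterByExpr (minimum count 10, minimum total 15), scaled with TMM and fitted over all 15591 tested genes with no covariate. The test was edgeR 4.0.16's quasi-likelihood F-test, with p-values adjusted by Benjamini-Hochberg and a threshold of 0.05. The coefficient of variation between libraries was 10.9%, or 5.64% once the replicate block was added. Other settings were the replicate block, DESeq2 size factors, library size scaling, no filter, a filter at 1 CPM, the DESeq2 1.42.0 Wald test, limma 3.58.1 voom and leaving out each library. Leaving out both replicate 1 libraries and adding the copies' counts were chosen after the data had been seen. Same-numbered libraries of the groups deviated together (correlations across genes of 0.47, 0.33 and 0.30, each above 0.1). Libraries with different numbers gave -0.35 to 0.12, and hypoxia replicate 2 with normoxia replicate 3 (0.12) was also above 0.1. The numbers in the labels were taken to pair the samples in the replicate block, although the labels do not state a pairing. Chi-square per gene between libraries of the same group was 12.4 to 59.2, so none was counted as a repeat of another. The fit was tested on simulated counts.

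The members and lists were chosen with earlier results of these data known. Named were every called member, members fixed by name, the called regulators and 7 regulators fixed by name, with full statistics for the 12 called members of largest fold change averaging at least 5 CPM. Other named genes (Eif1b, Eif3g and further members that were not called) were chosen after their values were seen. A listed marker gene is not reported here.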

Additional observations from a re-analysis of the deposited data

How the results depend on the processing

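Over 52 named genes, 642 fold changes under 15 other settings kept their direction and side of the threshold, 99 lost a call, 12 gained one and 27 changed sign. With the replicate block, 30 members were lower and 1 higher, 20 regulators were lower and 5 higher, and all 18 calls among members were kept. With library size scaling 9 members were lower and 1 higher, and 2 regulators were higher. Without both replicate 1 libraries 12 members were lower and 1 higher. Leaving out each library gave 3 to 18 members lower, fewest without hypoxia replicate 2, and 0 to 1 regulators higher. The causes were not tested, and leaving out a library leaves 2 in 1 group. For 3 of the 8 ratios of related genes, leaving out a library changed the sign of the difference: Eif4e2 to Eif4e became 0.011 without hypoxia replicate 1, Eif4e3 to Eif4e -0.032 without hypoxia replicate 2 and -0.021 without normoxia replicate 3, and Eif4g3 to Eif4g1 0.015 without normoxia replicate 2. The exact permutation test used for the ratios cannot give a p below 0.1, and a replicate block was not fitted to them.

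The values that changed sign in some setting were those of 7 genes that were not called. With library size scaling the fold change became 0.041 for Eif4e, 0.043 for Eif4g3, 0.060 for Eif4e3, 0.067 for Eif2s3x, 0.027 for Eif5a2 and 0.025 for Mtor. Eif4g1 became -0.00074 with either use of DESeq2 and -0.0071 without a filter, and Eif2s3x became 0.0019 with the stricter filter. Without both replicate 1 libraries Eif4e3 was 0.049 and Eif4g1 -0.046. Leaving out each library gave -0.12 to 0.051 for Eif4e, -0.14 to 0.023 for Eif4g3, -0.13 to 0.15 for Eif4e3, -0.087 to 0.12 for Eif4g1, -0.078 to 0.053 for Eif2s3x and -0.12 to 0.020 for Eif5a2.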
